A study of Arabidopsis thaliana with 12 samples.

Results

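The genes described here are 10 members of the UMAMIT family of Arabidopsis thaliana, chosen by locus code from 34262 loci counted in each library: UMAMIT14, UMAMIT18, UMAMIT25, UMAMIT28, UMAMIT41, UMAMIT44, UMAMIT45, UMAMIT46, UMAMIT47 and WAT1. The list was drawn up with their response to PLT5 induction already known, so their induced and mock levels are given as a description without p-values. All 10 passed the filter on low counts. The RefSeq annotation names 47 UMAMIT loci, and 46 of them, the 10 genes and 36 others, were followed here.

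All 12 libraries came from roots of plants that carry 35S:XVE>>PLT5-TagRFP, mock plants included. In this construct the chimeric activator XVE, which is made under the broadly active 35S promoter, switches on a PLT5 protein that carries the red fluorescent tag TagRFP when estradiol is given. The 4 groups were plants induced with estradiol for 8 h, plants given the solvent DMSO (mock) for 8 h, plants induced for 24 h and mock plants at 24 h, with 3 biological replicates each. A sample pooled pieces of 1.5 cm from the upper root of 15 plants, cut under the hypocotyl and freed of emerged side roots. PLT5, an AP2-type transcription factor of the PLETHORA group, had 2383 to 2632 counts-per-million (CPM, on TMM-scaled library sizes) in induced and 12.3 to 15.0 CPM in mock roots at 8 h. It had 2688 to 2929 CPM in induced and 11.8 to 17.2 CPM in mock roots at 24 h. Native and transgenic PLT5 transcripts were counted together.

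UMAMIT proteins (usually multiple acids move in and out transporters) are membrane proteins of the drug and metabolite transporter group. Several move amino acids down a gradient, out of cells or between compartments, and plants use them to unload the phloem in roots and to feed seeds. Uptake against a gradient is the work of other families, among them the amino acid permeases (AAP) and the lysine histidine transporters (LHT).

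All 10 genes had lower transcript levels in induced than in mock roots at 8 h and at 24 h, and the 3 induced and 3 mock libraries did not overlap for any of them at either time. The fitted log2 fold change was further below 0 at 24 h than at 8 h for each gene, but the difference between times was not called for UMAMIT28 or UMAMIT46. UMAMIT14 was lowest relative to mock, at 13.2% of the mock mean at 8 h and 0.918% at 24 h. UMAMIT44 was least affected, at 81.2% and 47.5% of its mock means. WAT1, the most abundant of the 10, stood at 74.6% at 8 h and 21.5% at 24 h.

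At 8 h, 10 of 10 genes were called lower by edgeR at an adjusted p under 0.05, where 23.1% of 21439 tested genes were called lower and 26.9% had induced libraries all under mock. The count at 24 h was again 10 of 10, where 34.0% of tested genes were called lower and 34.9% had induced libraries all under mock. Nothing is read from these counts, since the genes were chosen on these contrasts. At 8 h 2 calls rested on the setting. UMAMIT47 (log2 fold change -0.45) was not called with total library size as scaling (-0.36), without the low-count filter (-0.45) or in DESeq2 (-0.48), nor without any 1 of induced 8 h libraries 1 to 3 (-0.42, -0.46 and -0.49), mock 8 h libraries 1 and 3 (-0.49 and -0.35) or mock 24 h library 2 (-0.45). UMAMIT46 (-0.92) was not called without induced 8 h library 2 (-0.73) or mock 8 h libraries 1 and 3 (-0.92 and -0.77).

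**Figure D1:**
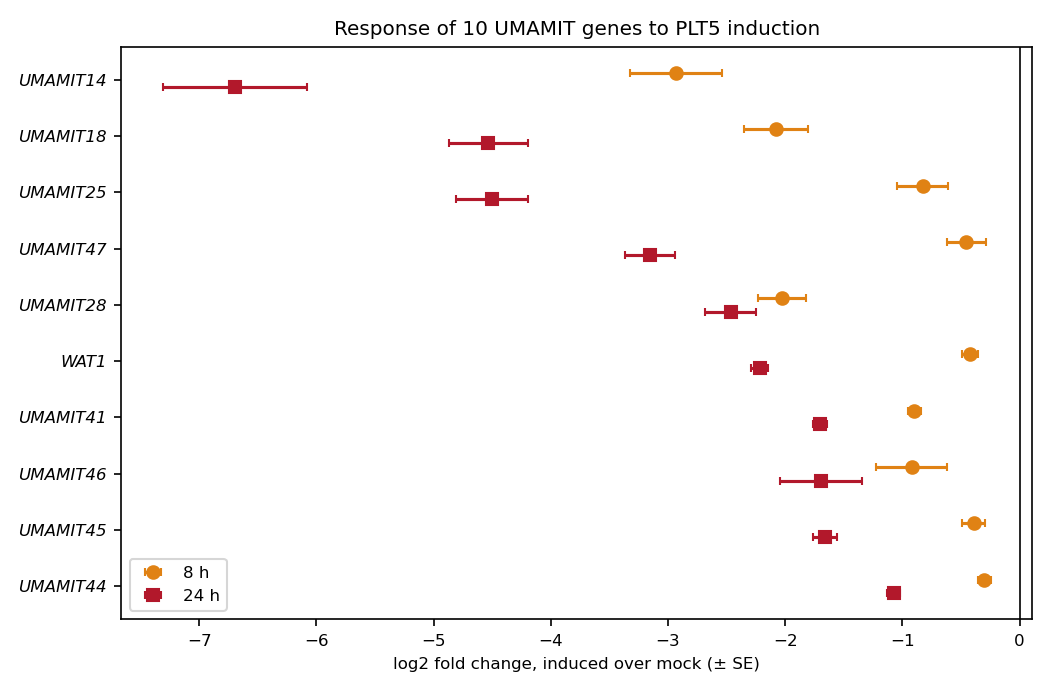
Log2 fold change (induced over mock, x axis) of the 10 UMAMIT genes at 8 h (circles) and 24 h (squares), with bars for the standard error of the fit over 12 libraries; genes are ordered by the 24 h value. Values at 24 h lie between -6.70 for UMAMIT14 and -1.07 for UMAMIT44, and those at 8 h between -2.93 and -0.30.

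The regions before the gene starts are shown for the 3 genes with the lowest fold change at 8 h (UMAMIT14, UMAMIT18 and UMAMIT28) and for UMAMIT44, which had the smallest difference. Each line holds the 250 bases before the annotated start, 5′ to 3′ on the gene's strand, from the RefSeq TAIR10.1 genome, and capitals mark matches to TATAAA (the TATA box core) or TGTCTC (an auxin response element) on either strand. The windows are chr2:16493344-16493593 (minus strand) for UMAMIT14, chr1:16917054-16917303 (minus) for UMAMIT18, chr1:41018-41267 (minus) for UMAMIT28 and chr3:10465010-10465259 (plus) for UMAMIT44.
UMAMIT14: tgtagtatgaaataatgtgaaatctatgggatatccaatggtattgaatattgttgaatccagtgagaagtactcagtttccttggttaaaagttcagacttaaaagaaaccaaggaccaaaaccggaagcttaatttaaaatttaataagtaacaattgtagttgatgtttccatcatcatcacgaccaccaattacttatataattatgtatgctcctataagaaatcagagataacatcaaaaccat
UMAMIT18: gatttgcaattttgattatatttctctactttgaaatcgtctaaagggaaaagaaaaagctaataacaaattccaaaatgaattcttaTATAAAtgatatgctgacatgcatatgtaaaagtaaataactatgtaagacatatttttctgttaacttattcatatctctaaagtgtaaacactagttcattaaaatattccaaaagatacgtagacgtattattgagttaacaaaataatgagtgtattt
UMAMIT28: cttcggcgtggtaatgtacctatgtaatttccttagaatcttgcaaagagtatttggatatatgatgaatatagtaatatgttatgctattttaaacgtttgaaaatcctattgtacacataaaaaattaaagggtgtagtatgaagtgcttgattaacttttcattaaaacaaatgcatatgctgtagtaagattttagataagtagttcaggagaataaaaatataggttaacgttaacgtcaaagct
UMAMIT44: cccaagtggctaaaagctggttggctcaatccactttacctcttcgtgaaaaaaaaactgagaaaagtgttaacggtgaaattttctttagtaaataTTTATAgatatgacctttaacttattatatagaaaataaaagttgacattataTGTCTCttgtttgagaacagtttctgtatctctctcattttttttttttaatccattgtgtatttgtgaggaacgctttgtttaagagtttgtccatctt
The window of UMAMIT18 held 1 TATAAA match, with its first base at position -162 counted back from the gene start. The window of UMAMIT44 held 1 TATAAA match, on the opposite strand, at -153 and 1 TGTCTC match at -100, and these did not overlap. The windows of UMAMIT14 and UMAMIT28 held neither word. Over the 10 genes, 6 windows held TATAAA and 1 held TGTCTC. Among the 27443 genes with such a window, 47.3% held TATAAA and 10.9% held TGTCTC. A match is a run of letters and no evidence of a bound site.

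WAT1 (AT1G75500, chr1:28337726-28340275, minus strand), also called UMAMIT5, is known for another cargo: it exports auxin from the vacuole and is needed for secondary walls in fibers. It had 662, 583 and 685 CPM in induced roots at 8 h, against 918, 832 and 839 CPM in mock roots. After 24 h, induced roots had 186, 210 and 198 CPM, against 915, 935 and 911 CPM in mock roots. Induced libraries lay under all mock libraries at both times, by a narrow margin at 8 h and a wide one at 24 h. Its log2 fold change was -0.42 (SE 0.0687) at 8 h and -2.22 (SE 0.0718) at 24 h. The 24 h value minus the 8 h value was -1.79 (SE 0.0979).

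UMAMIT14 and UMAMIT18 are both known from vascular tissue. UMAMIT14 (AT2G39510, chr2:16491143-16493343, minus strand) exports amino acids and takes part in phloem unloading in roots and in transfer to seeds. It had 0.926, 0.957 and 1.68 CPM in induced roots at 8 h, against 13.3, 6.48 and 7.28 CPM in mock roots. Its 24 h levels were 0.0477, 0.143 and 0 CPM in induced roots, against 9.87, 6.38 and 4.54 CPM in mock roots. Its 3 induced libraries at 24 h held 8 counts in all, against 789 in the mock libraries. The mock libraries varied by 41.3% (coefficient of variation) at 8 h and 39.1% at 24 h, and still none came near the induced ones. On the log2 scale the fold change was -2.93 (SE 0.392) at 8 h and -6.70 (SE 0.616) at 24 h, a difference between times of -3.77 (SE 0.873). With so few counts a single library moved the 24 h value: it was -8.00 without induced library 2 and -6.14 without induced library 3, and the difference between times was then -5.07 and -3.21.

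UMAMIT18 (AT1G44800, chr1:16913994-16917053, minus strand), also known as SIAR1, carries amino acids in both directions and is expressed in vascular tissue. It had 11.4, 6.72 and 10.5 CPM in induced roots at 8 h, against 47.3, 45.5 and 28.4 CPM in mock roots. Induced roots at 24 h had 1.76, 2.24 and 0.649 CPM, against 35.2, 42.0 and 30.9 CPM in mock roots. The third library was the lowest in 3 of the 4 groups, and the gap between induced and mock exceeded that spread at both times. The log2 fold change was -2.08 (SE 0.274) at 8 h and -4.53 (SE 0.336) at 24 h, and these differed by -2.46 (SE 0.434).

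UMAMIT25 and UMAMIT28 are known for amino acid export in developing seeds, and both were also counted in these roots. UMAMIT25 (AT1G09380, chr1:3026062-3029549, minus strand) had 2.41, 2.61 and 1.62 CPM in induced roots at 8 h, against 2.99, 3.69 and 5.13 CPM in mock roots. At 24 h it had 0.214, 0.167 and 0.120 CPM in induced roots, against 4.15, 3.58 and 3.87 CPM in mock roots. Its response was thus mostly late: induced roots held 56.3% of the mock mean at 8 h and 4.33% at 24 h. Its log2 fold change was -0.83 (SE 0.218) at 8 h and -4.50 (SE 0.308) at 24 h, a difference between times of -3.68 (SE 0.392).

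UMAMIT28 (AT1G01070, chr1:38444-41017, minus strand) had 2.66, 2.17 and 1.91 CPM in induced roots at 8 h, against 11.1, 9.59 and 6.83 CPM in mock roots. After 24 h, induced roots had 1.57, 1.81 and 1.13 CPM, against 8.995, 8.93 and 7.05 CPM in mock roots. Its level in induced roots was 24.5% of the mock mean at 8 h and 18.1% at 24 h, and its induced libraries at 24 h lay under those at 8 h. On the log2 scale the fold change was -2.03 (SE 0.207) at 8 h and -2.47 (SE 0.216) at 24 h. The difference between times, -0.44 (SE 0.300), was not called.

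**Figure D2:**
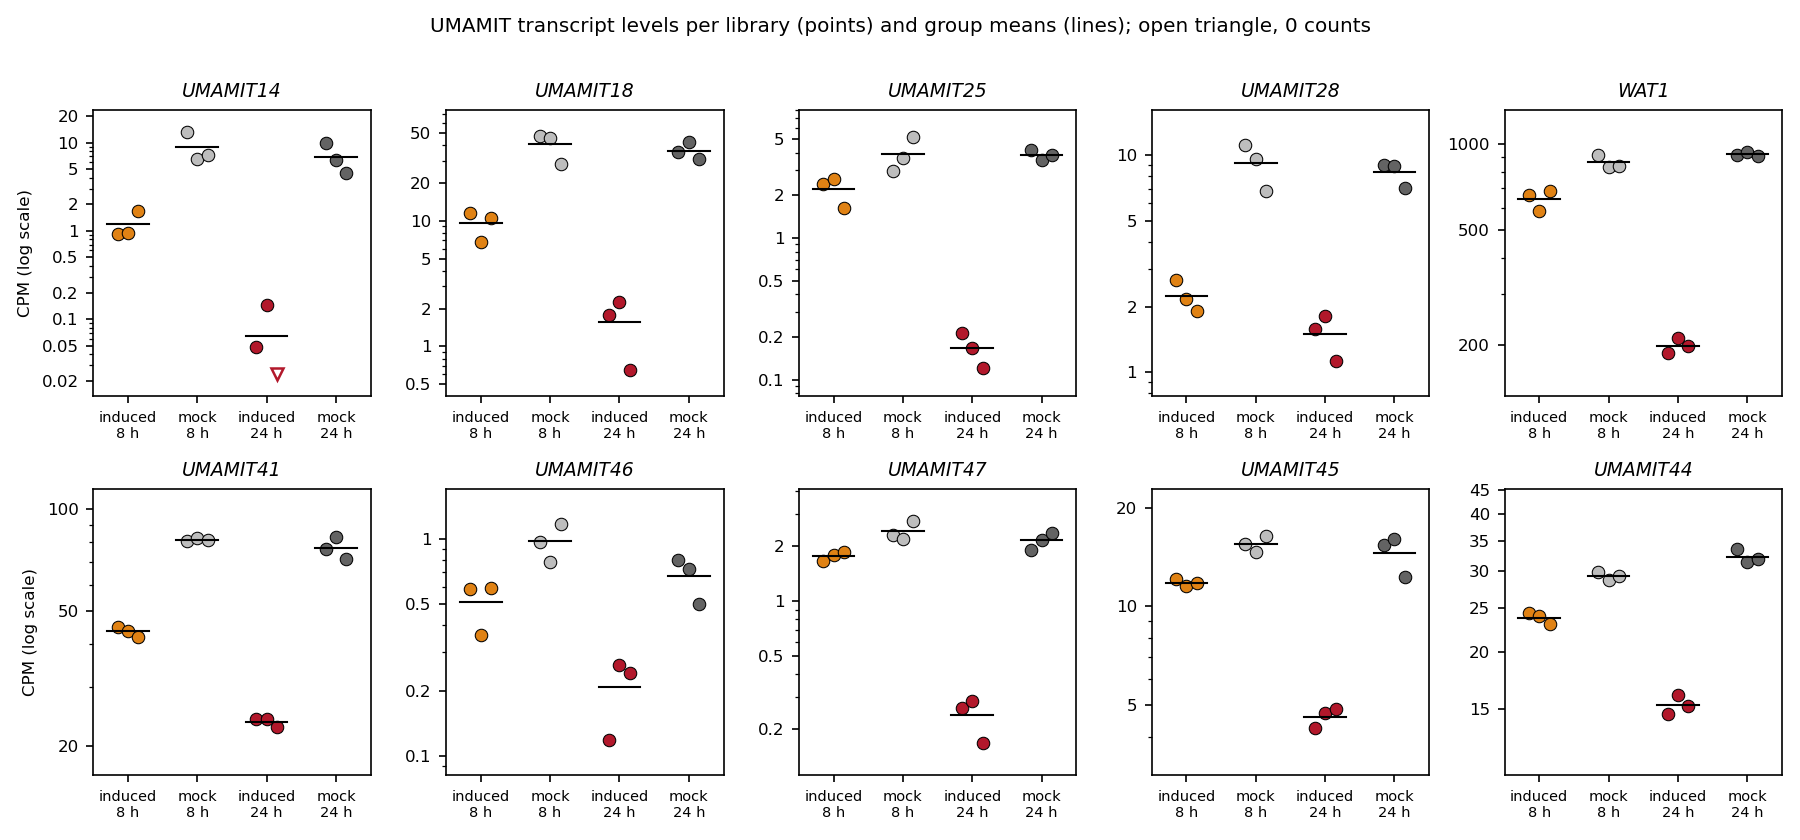
Transcript level of each of the 10 genes in CPM (log axis, its own range per panel) in the 3 libraries of each group (points) with the group mean (line); the open triangle is the library with 0 counts of UMAMIT14. Induced libraries lie under mock libraries in every panel at 8 h and at 24 h, and WAT1 has 583 to 685 CPM in induced against 832 to 918 CPM in mock roots at 8 h.

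The other 5 genes, UMAMIT41, UMAMIT46, UMAMIT47, UMAMIT45 and UMAMIT44 in this order, lie on the plus strand within 26351 bases of chromosome 3, which hold 7 loci. UMAMIT44 is known to export glutamate from chloroplasts. Lying between them are the pseudogene UMAMIT43-psi, with 5 counts over the mock 8 h libraries and 0 in the other groups, and AT3G28120, with 1 count in all. The coding sequences of UMAMIT45, UMAMIT46 and UMAMIT47 are 87.7% to 89.7% identical to each other, while that of UMAMIT44 is 76.0% to 78.0% identical to these. The stretch below, the longest that UMAMIT45 and UMAMIT46 share, shows how alike neighbours are: capitals mark bases that differ from UMAMIT45, from the coding sequences in RefSeq TAIR10.1, with 69 bases each.
UMAMIT45: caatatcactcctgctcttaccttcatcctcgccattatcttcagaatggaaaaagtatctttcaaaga
UMAMIT46: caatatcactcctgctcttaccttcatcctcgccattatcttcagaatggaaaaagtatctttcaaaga
UMAMIT47: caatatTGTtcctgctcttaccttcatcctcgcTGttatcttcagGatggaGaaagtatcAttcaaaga
UMAMIT44: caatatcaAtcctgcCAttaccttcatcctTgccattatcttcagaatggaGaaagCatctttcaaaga
UMAMIT41: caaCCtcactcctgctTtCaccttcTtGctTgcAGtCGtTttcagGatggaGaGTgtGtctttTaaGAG
UMAMIT47 differed from UMAMIT45 at 8 of these bases, UMAMIT44 at 6 and UMAMIT41 at 21. Over whole coding sequences UMAMIT45 was 89.1% identical to UMAMIT46, 87.7% to UMAMIT47, 78.0% to UMAMIT44 and 60.2% to UMAMIT41. Such copies can share reads. Of all runs of 50 exon bases, 99.5% of those of UMAMIT45, 99.1% of those of UMAMIT46 and 100% of those of UMAMIT47, UMAMIT44 and UMAMIT41 occurred once in the genome, and outside the array the share was 98.0% for UMAMIT28 and 100% for the other 4 genes. How the authors treated reads with several matches is not given in the sources used here.

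Among the 5 neighbours the log2 fold change at 24 h spanned -3.15 to -1.07. UMAMIT47 (AT3G28080, chr3:10451403-10455323) had 1.66, 1.78 and 1.86 CPM in induced roots at 8 h, against 2.30, 2.19 and 2.76 CPM in mock roots. Its 24 h levels were 0.262, 0.287 and 0.168 CPM in induced roots, against 1.92, 2.18 and 2.37 CPM in mock roots. Induced libraries lay under mock ones at both times, at 73.0% of the mock mean at 8 h and 11.1% at 24 h. The log2 fold change was -0.45 (SE 0.168) at 8 h and -3.15 (SE 0.216) at 24 h, a difference between times of -2.70 (SE 0.278).

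UMAMIT41 (AT3G28050, chr3:10442608-10445431), the most abundant of the array, had 45.0, 43.9 and 42.1 CPM in induced roots at 8 h, against 80.9, 82.1 and 81.2 CPM in mock roots. Induced roots at 24 h had 24.0, 24.1 and 22.8 CPM, against 76.5, 83.1 and 71.4 CPM in mock roots. The libraries of each group lay close together, with coefficients of variation of 0.793% to 7.61%. Its log2 fold change was -0.90 (SE 0.0563) at 8 h and -1.70 (SE 0.0580) at 24 h, and these differed by -0.80 (SE 0.0799).

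UMAMIT44 (AT3G28130, chr3:10465260-10468958) had 24.3, 24.0 and 22.99 CPM in induced roots at 8 h, against 30.0, 28.7 and 29.3 CPM in mock roots. At 24 h it had 14.6, 16.1 and 15.2 CPM in induced roots, against 33.5, 31.4 and 31.9 CPM in mock roots. Small as the 8 h gap was, the groups stayed apart. On the log2 scale the fold change was -0.30 (SE 0.0536) at 8 h and -1.07 (SE 0.0545) at 24 h, and these differed by -0.77 (SE 0.0763).

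UMAMIT45 (AT3G28100, chr3:10456029-10461000) lay at 11.5 to 12.1 CPM in induced and 14.6 to 16.4 CPM in mock roots at 8 h, and at 4.27 to 4.86 CPM in induced and 12.3 to 16.1 CPM in mock roots at 24 h. Its log2 fold change was -0.39 (SE 0.0949) at 8 h and -1.66 (SE 0.102) at 24 h, and these differed by -1.27 (SE 0.139). UMAMIT46 (AT3G28070, chr3:10447845-10451064) was the rarest of the 10 in mock roots, with 61 counts over the 3 induced and 108 over the 3 mock libraries at 8 h, and 26 over induced and 77 over mock libraries at 24 h. Its levels were 0.362 to 0.593 CPM in induced and 0.780 to 1.17 CPM in mock roots at 8 h, and 0.119 to 0.263 CPM in induced and 0.502 to 0.798 CPM in mock roots at 24 h. The groups did not overlap, but the standard errors were the widest of the array: the log2 fold change was -0.92 (SE 0.301) at 8 h and -1.69 (SE 0.349) at 24 h, and the difference of -0.77 (SE 0.463) was not called.

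**Figure D3:**
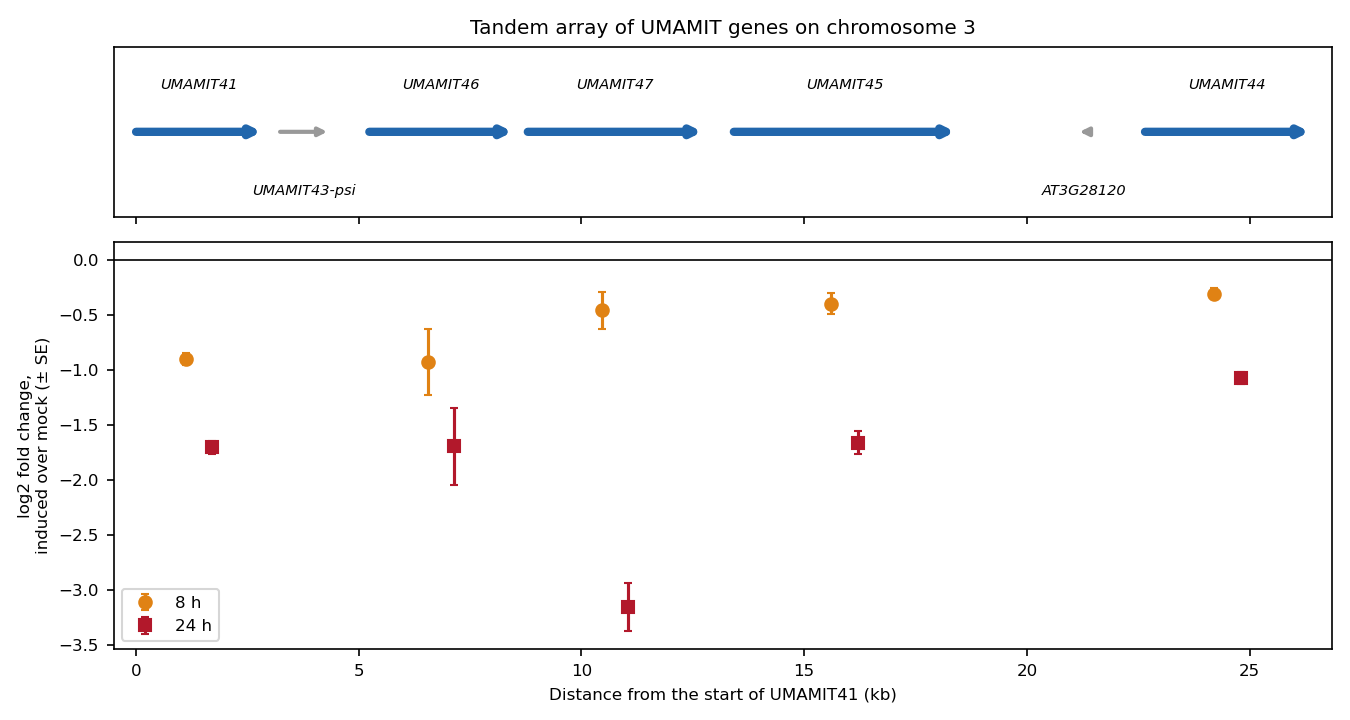
Upper panel, the UMAMIT array on chromosome 3 to scale, with the 5 genes in blue and the other 2 loci in grey, arrows pointing along transcription. Lower panel, log2 fold change (induced over mock, with SE) of each gene at 8 h (circles) and 24 h (squares), set side by side at the gene's centre. UMAMIT47 reached -3.15 at 24 h, while its neighbours lay between -1.70 and -1.07.

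Over all 10 genes, 8 had a 24 h response called lower than the 8 h response, the exceptions being UMAMIT28 and UMAMIT46. Among all tested genes 22.6% were called lower in this difference. The median log2 fold change of the 10 was -0.86 at 8 h and -2.34 at 24 h, against 0.02 and 0.06 over all tested genes. At least 4-fold lower (log2 -2 or under) were 3 of 10 at 8 h and 6 of 10 at 24 h, against 2.15% and 10.1% of all tested genes. These are properties of a list chosen for its response.

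Time alone was tested in mock roots, a contrast not used to choose the genes. None of the 10 was called between mock at 24 h and mock at 8 h by edgeR (0 called, 1 with an unadjusted p under 0.05) or by DESeq2 (0 called), where edgeR called 0.662% of tested genes. Log2 fold changes (24 h over 8 h) ran from -0.53 for UMAMIT46 (SE 0.293, adjusted p = 0.62) to 0.14 for UMAMIT44 (SE 0.0532, adjusted p = 0.388). UMAMIT44 was the gene whose mock libraries did not overlap between times, with 31.4 to 33.5 CPM at 24 h and 28.7 to 30.0 CPM at 8 h, as 6.72% of tested genes were at 24 h above 8 h. For the others the adjusted p lay between 0.62 and 0.987.

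Levels of different genes were set side by side per kb of exon. In mock roots at 24 h the mean levels were 482 CPM per kb for WAT1, 45.4 for UMAMIT41, 21.8 for UMAMIT18 and 17.1 for UMAMIT44, and these 4 did not overlap in any library. Lower down, UMAMIT45 (5.51 CPM per kb), UMAMIT28 (4.55) and UMAMIT14 (4.34) overlapped their neighbours, and UMAMIT25 (2.36), UMAMIT47 (0.827) and UMAMIT46 (0.330) followed without overlap. In induced roots at 24 h WAT1 (104 CPM per kb), UMAMIT41 (13.95) and UMAMIT44 (8.12) led. UMAMIT18 (0.937 CPM per kb) stood behind UMAMIT45 (1.74) there, and UMAMIT14 (0.0398) was last, overlapping UMAMIT47 (0.0918).

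Summed over all 46 UMAMIT loci, the level was 553 ± 35.7 CPM per kb in induced and 811 ± 36.6 CPM per kb in mock roots at 8 h (SD, n = 3 each). The 24 h sum was 213 ± 9.43 CPM per kb in induced and 832 ± 32.5 CPM per kb in mock roots. WAT1 made up 59.7% to 62.5% of this sum in induced and 54.0% to 56.6% in mock libraries at 8 h, and 47.6% to 49.3% in induced and 56.4% to 59.4% in mock libraries at 24 h. Its share was thus above the mock range at 8 h and below it at 24 h. The 9 genes besides WAT1 summed to 52.8 ± 2.18 CPM per kb in induced and 108 ± 7.98 in mock roots at 8 h, and to 25.9 ± 1.35 in induced and 102 ± 8.67 in mock roots at 24 h.

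**Figure D4:**
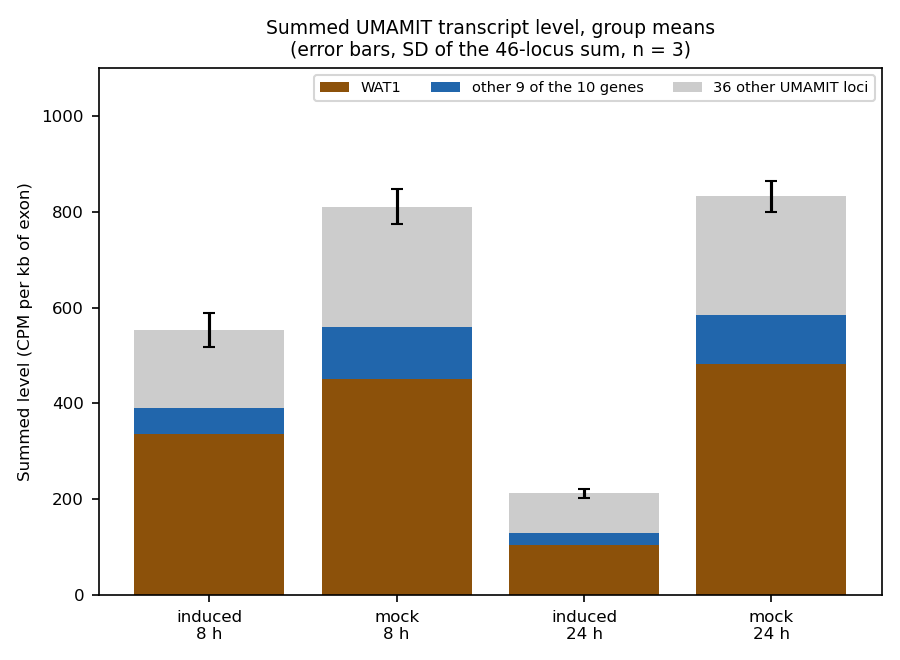
Summed transcript level of the UMAMIT family in CPM per kb of exon (group means, stacked) for WAT1, the other 9 of the 10 genes and the 36 other UMAMIT loci; error bars are the SD of the 46-locus sum over 3 libraries. The sum at 24 h is 213 CPM per kb in induced and 832 CPM per kb in mock roots.

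The libraries are bulk RNA from whole root pieces, so fewer cells of a type and less RNA per cell cannot be told apart. Transcripts that mark tissues moved as well. Of all tested genes, 23.1% were called lower and 22.3% higher at 8 h, and 34.0% lower and 38.3% higher at 24 h. These shares stand beside the marker counts here and in the next paragraph. The summed level of 2 pericycle markers (PHO1, SKOR) was 53.7 to 58.5 CPM in induced and 127 to 157 CPM in mock libraries at 8 h, and 15.4 to 21.3 CPM in induced and 120 to 146 CPM in mock libraries at 24 h. Both were called lower at 8 h and only PHO1 at 24 h. PHO1 made up nearly all of the sum, with means of 17.8 CPM in induced and 129 CPM in mock roots at 24 h. SKOR averaged 0.733 and 1.15 CPM there, and its induced and mock libraries overlapped. The sum of 8 phloem markers was 593 to 676 CPM in induced and 511 to 620 CPM in mock libraries at 8 h, where 1 was called higher and 4 lower. The 24 h sum was 281 to 290.0 CPM in induced and 502 to 641 CPM in mock libraries, with 1 called higher and 7 lower. The range at 8 h thus overlapped with mock and at 24 h did not. The phloem marker called higher was SUC2, for the sucrose carrier of companion cells (named after its values were seen), which averaged 179.6 ± 19.7 CPM in induced and 34.6 ± 5.16 CPM in mock roots at 8 h, and 139 ± 11.7 CPM in induced and 37.7 ± 9.27 CPM in mock roots at 24 h. Without SUC2 the sum of the other 7 was 435.8 to 481.8 CPM in induced and 481.6 to 579.9 CPM in mock libraries at 8 h, and 138 to 156 CPM in induced and 472 to 593 CPM in mock libraries at 24 h. The 8 h ranges of these 7 then barely met, with the induced libraries on the lower side.

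The sum of 8 xylem markers was 477 to 688 CPM in induced and 527 to 866 CPM in mock libraries at 8 h, with 0 of 8 called by edgeR 0 with an unadjusted p under 0.05 and 0 called by DESeq2. The 24 h sum was 140.1 to 202 CPM in induced and 539 to 822 CPM in mock libraries, with 8 of 8 called lower. The sum of 7 markers of endodermis and suberin was 381 to 467 CPM in induced and 619 to 712 CPM in mock libraries at 8 h, and 23.1 to 46.6 CPM in induced and 639 to 758 CPM in mock libraries at 24 h, with 3 of 7 called lower at 8 h and 6 of 7 at 24 h. No marker was at 0 in a group, so transcripts of each of these root tissues were present. The green tissue markers RBCS1A and CAB1 summed to 2180 to 2655 CPM in induced and 2164 to 2189 CPM in mock libraries at 8 h, and to 1346 to 1446 CPM in induced and 1853 to 2492 CPM in mock libraries at 24 h, with 1 of 2 called higher at 8 h and 2 of 2 called lower at 24 h. The part of these shifts in the UMAMIT values was not tested.

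The other members of the family were taken as every UMAMIT locus that RefSeq names, except the 10 and the pseudogene UMAMIT39-psi. Of the 36, 28 passed the low-count filter, and the others stayed at 0.425 CPM or less in every library. At 8 h, 16 fell and 2 rose, and 10 did not pass the test, with a median log2 fold change of -0.96 against 0.02 for all tested genes, of which 23.1% were called lower and 22.3% higher. At 24 h, 21 fell and 0 rose (edgeR; 0 also at an unadjusted p under 0.05 and in DESeq2), and 7 did not pass, with a median of -1.70 against 0.06 for all tested genes, of which 34.0% were called lower and 38.3% higher. With total library size as scaling the counts were 15 lower and 4 higher at 8 h and 20 lower and 3 higher at 24 h, and with that scaling the median log2 fold change over all tested genes shifted up by 0.10 (8 h) and 0.14 (24 h). It also made 65.1% of all calls at 8 h rises, against 49.1% with TMM and 43.8% with RLE factors. The 24 h response was called lower than the 8 h response for 18 of the 28 and higher for 0 (edgeR, 0 also at an unadjusted p under 0.05 and 0 called in DESeq2), where 22.6% of all tested genes were called lower and 18.2% higher.

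UMAMIT33 (AT4G28040) was called lower at both times. It had 1.61, 0.931 and 1.34 CPM in induced roots at 8 h, against 12.9, 12.2 and 15.8 CPM in mock roots, and 0.0715, 0.191 and 0.0240 CPM in induced roots at 24 h, against 18.4, 17.2 and 18.8 CPM in mock roots. The log2 fold change was -3.39 (SE 0.193, edgeR adjusted p = 1.23e-07) at 8 h and -7.52 (SE 0.284, edgeR adjusted p = 3.63e-10) at 24 h, and the groups did not overlap.

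UMAMIT29 (AT4G01430), known with UMAMIT28 and UMAMIT14 from amino acid export in developing seeds, averaged 1.01 ± 0.321 CPM in induced and 5.47 ± 1.08 CPM in mock roots at 8 h and fell by 2.44 on the log2 scale (SE 0.215, edgeR adjusted p = 2.95e-06). UMAMIT22 (AT1G43650) averaged 4.83 ± 0.864 CPM in induced and 13.2 ± 1.51 CPM in mock roots at 8 h (log2 fold change -1.45, SE 0.134, edgeR adjusted p = 4.26e-06). UMAMIT27 (AT1G11450) averaged 26.2 ± 4.07 CPM in induced and 68.1 ± 8.02 CPM in mock roots at 8 h (log2 fold change -1.38, SE 0.128, edgeR adjusted p = 4.63e-06). All 3 induced libraries lay under the mock ones for each of these genes.

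At 24 h UMAMIT27 averaged 2.59 ± 0.584 CPM in induced and 65.6 ± 2.68 CPM in mock roots (log2 fold change -4.66, SE 0.159, edgeR adjusted p = 1.85e-10). UMAMIT12 (AT2G37460) averaged 0.949 ± 0.234 CPM in induced and 29.7 ± 3.80 CPM in mock roots (log2 fold change -4.97, SE 0.182, edgeR adjusted p = 3.01e-10). UMAMIT30 (AT4G01450) averaged 21.7 ± 1.01 CPM in induced and 64.8 ± 6.33 CPM in mock roots (log2 fold change -1.58, SE 0.0868, edgeR adjusted p = 7.48e-09). The libraries of the groups stayed apart in all of these. UMAMIT32 (AT3G30340) had 0 counts in the induced libraries at 24 h and 283 in the mock libraries, and was at least 104-fold lower (floor of 3 counts over the group).

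The 2 genes that rose at 8 h, UMAMIT38 and UMAMIT1, were named after their values were seen. UMAMIT38 (AT4G15540) averaged 39.4 ± 1.16 CPM in induced and 31.6 ± 1.38 CPM in mock roots at 8 h (log2 fold change 0.32, SE 0.0589, edgeR adjusted p = 0.000932). At 24 h it averaged 25.9 ± 1.61 CPM in induced and 31.6 ± 1.29 CPM in mock roots (log2 fold change -0.28, SE 0.0594, edgeR adjusted p = 0.000901). UMAMIT1 (AT5G45370) averaged 12.1 ± 0.858 CPM in induced and 10.6 ± 0.436 CPM in mock roots at 8 h (log2 fold change 0.19, SE 0.0702, edgeR adjusted p = 0.0403). Of the 18 alternative settings, which include RLE factors, the replicate block and DESeq2, 11 did not call UMAMIT1 at 8 h (adjusted p 0.00537 to 0.134 over the settings), while all 18 called UMAMIT38 at 8 h and 17 called it at 24 h, the exception being total library size.

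Other amino acid transporters, most of them known for uptake, were listed as importers, among them BAT1, which is known to carry amino acids in both directions. Of 24 listed, 22 were tested. At 8 h, 14 fell and 4 rose (median log2 fold change -0.56, against 0.02 over all tested genes), where 23.1% of all tested genes were called lower and 22.3% higher. At 24 h, 14 fell and 5 rose (median -1.07, against 0.06), where 34.0% were called lower and 38.3% higher. The share of importers that rose was thus no larger than among all tested genes at either time. The share that fell was larger at both times, in a list chosen with earlier results known. LHT1 (AT5G40780), which takes up amino acids at the root surface, had 129, 126 and 154 CPM in induced roots at 8 h, against 32.3, 34.6 and 42.0 CPM in mock roots. It rose by 1.91 on the log2 scale (SE 0.128, edgeR adjusted p = 3.62e-07), and all induced libraries lay above the mock ones. LHT1 was also higher at 24 h, by 1.205 (SE 0.124, edgeR adjusted p = 2.35e-06), again without overlap.

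AAP6 (AT5G49630), which is known for uptake from the xylem sap, fell at both times, with a log2 fold change of -1.55 at 8 h (SE 0.103, edgeR adjusted p = 3.56e-07) and -4.68 at 24 h (SE 0.131, edgeR adjusted p = 5.38e-11). Its mean was 1.47 ± 0.116 CPM in induced and 37.7 ± 4.82 CPM in mock roots at 24 h. AAP2 (AT5G09220), which moves amino acids from xylem to phloem, averaged 8.14 ± 0.344 CPM in induced and 174 ± 13 CPM in mock roots at 24 h (log2 fold change -4.42, SE 0.176, edgeR adjusted p = 5.22e-10). Both lay far below mock in every library at 24 h. The proline transporter genes PROT3 at 8 h (-4.82, SE 0.408, edgeR adjusted p = 2.1e-06) and PROT1 at 24 h (-1.08, SE 0.0671, edgeR adjusted p = 2.11e-08), the cationic amino acid transporter gene CAT7 at 8 h (-3.02, SE 0.314, edgeR adjusted p = 1.11e-05) and AAP4 at 24 h (-2.44, SE 0.163, edgeR adjusted p = 4.2e-08) were the other leading importers by adjusted p, all lower. The values of PROT3 and CAT7 rest on few counts at 8 h. PROT3 had 6 counts over the induced and 166 over the mock libraries, and CAT7 had 25 and 189.

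GLUTAMINE DUMPER genes encode small membrane proteins, and overproduction of GDU1 makes plants secrete glutamine. At 8 h, 1 of the 7 rose and 2 fell, shares near the 22.3% higher and 23.1% lower of all tested genes. At 24 h, 6 fell and 0 rose (edgeR; 0 also at an unadjusted p under 0.05 and in DESeq2), where 34.0% of all tested genes were called lower and 38.3% higher. GDU1 (AT4G31730) averaged 76.7 ± 12.2 CPM in induced and 73.2 ± 4.44 CPM in mock roots at 8 h, with overlapping libraries. At 24 h it averaged 17.2 ± 0.951 CPM in induced and 70.2 ± 9.99 CPM in mock roots (log2 fold change -2.03, SE 0.125, edgeR adjusted p = 2.03e-08). GDU4 (AT2G24762) was the riser at 8 h, at 102 ± 12.1 CPM in induced and 49.5 ± 9.35 CPM in mock roots (log2 fold change 1.05, SE 0.131, edgeR adjusted p = 4.89e-05). GDU5 fell at both times, with a log2 fold change of -4.39 at 8 h (SE 0.420, edgeR adjusted p = 5.62e-06) and -6.27 at 24 h (SE 0.537, edgeR adjusted p = 4.27e-07). GDU6 fell likewise, with values of -3.68 at 8 h (SE 0.478, edgeR adjusted p = 6.37e-05) and -5.73 at 24 h (SE 0.639, edgeR adjusted p = 4.73e-06). These fold changes rest on few counts. The induced libraries together held 40 of GDU5 at 8 h and 9 at 24 h, against 786 and 657 in mock. For GDU6 they held 16 and 3, against 196 and 163. GDU2 fell by 2.38 at 24 h (SE 0.285, edgeR adjusted p = 9.09e-06).

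Of 9 genes for glutamine and asparagine synthetases, which make the amides that carry nitrogen, 8 were tested. At 8 h, 4 were called higher and 3 lower, where 22.3% of all tested genes were called higher and 23.1% lower. At 24 h, 5 were called higher and 3 lower, where 38.3% were called higher and 34.0% lower, so the share that was lower at 24 h was near that of all genes. ASN1 (AT3G47340), the dark-inducible asparagine synthetase gene, had 27.1, 24.0 and 22.4 CPM in induced roots at 8 h, against 409, 413 and 497 CPM in mock roots. After 24 h, induced roots had 1.98, 3.39 and 2.52 CPM, against 565, 470 and 441 CPM in mock roots. Its log2 fold change was -4.17 (SE 0.149, edgeR adjusted p = 9.07e-09) at 8 h and -7.55 (SE 0.184, edgeR adjusted p = 3.44e-11) at 24 h, with the groups far apart.

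GLN1;1 (AT5G37600), for a cytosolic glutamine synthetase, fell, with a log2 fold change of -1.73 at 8 h (SE 0.0612, edgeR adjusted p = 9.07e-09) and -2.48 at 24 h (SE 0.0631, edgeR adjusted p = 3.59e-11). GLN2 (AT5G35630), for the plastid enzyme, averaged 207 ± 3.90 CPM in induced and 56.9 ± 10.5 CPM in mock roots at 24 h and rose by 1.87 on the log2 scale (SE 0.131, edgeR adjusted p = 6.79e-08). It had risen by 0.71 at 8 h (SE 0.129, edgeR adjusted p = 0.00083). ASN3 rose by 0.26 at 8 h (SE 0.0636, edgeR adjusted p = 0.00551) and GLN1;4 by 1.298 at 24 h (SE 0.104, edgeR adjusted p = 2.34e-07).

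**Figure D5:**
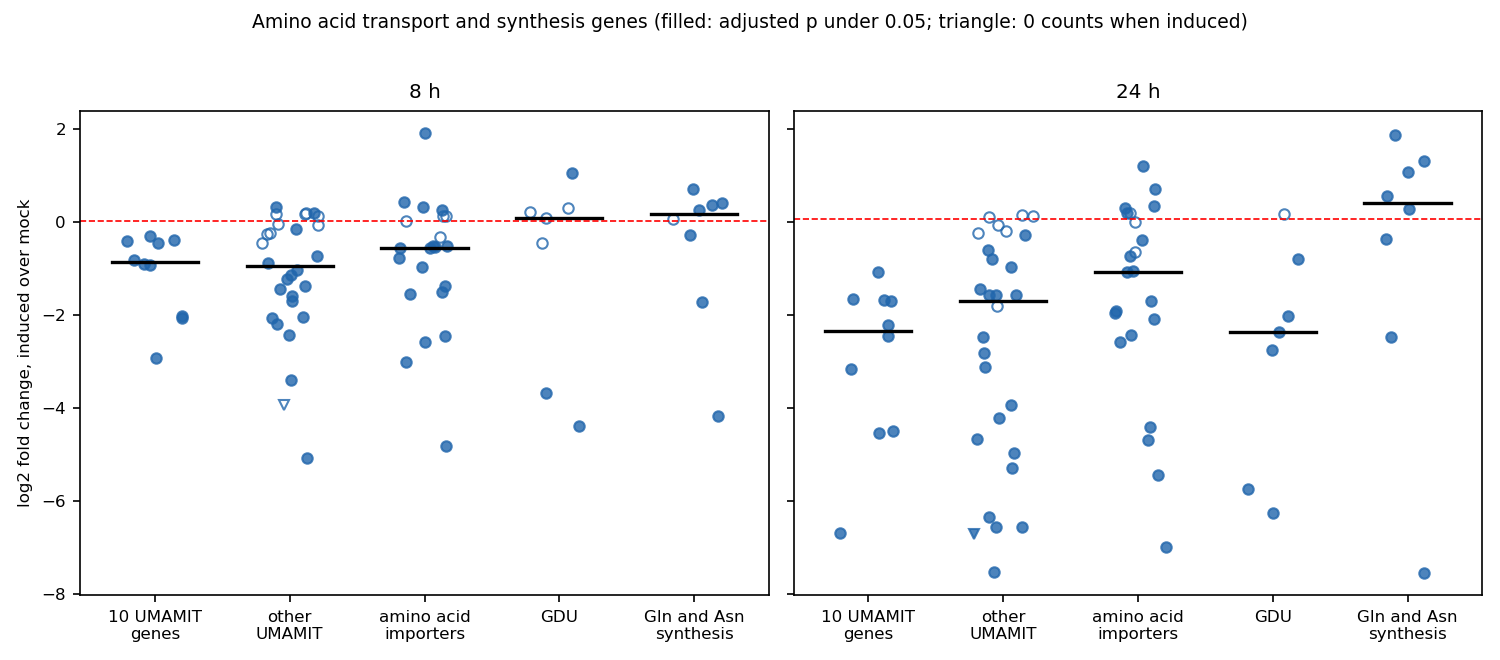
Log2 fold change (induced over mock) of each tested gene at 8 h (left) and 24 h (right) in 5 gene lists; filled points had an adjusted p under 0.05, triangles mark genes with 0 counts in the induced group set at their bound, black lines are list medians and the dashed line the median of all tested genes. At 24 h the medians were -2.34 for the 10 genes, -1.70 for the other UMAMIT genes and 0.41 for the synthesis genes. The 10 genes were chosen for their response, so their position is no test.

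The genes whose pattern was most like that of UMAMIT14, the member with the lowest fold change at 24 h, were found among 15902 genes with a mean of at least 5 CPM by the Pearson correlation of log2(CPM + 1) over the 12 libraries. They were PIL1 (r = 0.988), AT1G05870 (0.986), AT2G38970 (0.984), AT5G50000 (0.984) and AT5G52882 (0.983). PIL1, for a transcription factor related to the phytochrome interacting factors, averaged 2.61 CPM in induced and 9.50 CPM in mock roots at 8 h, and 0.941 CPM in induced and 7.93 CPM in mock roots at 24 h. At 24 h AT1G05870 averaged 37.4 CPM in induced and 74.8 CPM in mock roots, and AT2G38970 41.9 and 76.3 CPM. AT5G50000 averaged 53.35 and 69.45 CPM there, and AT5G52882 14.9 and 103 CPM. All of them fell less than UMAMIT14 (0.918% of its mock mean at 24 h), as r does not measure the size of a change. These r describe libraries that share their group differences and carry no p.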

How the data were processed

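RNA was measured in 12 root libraries (4 groups, 3 replicates). Per the labels' protocols, a GeneJET kit gave total RNA, from which a TruSeq Stranded Total RNA kit made the libraries. The deposited values are whole-number counts per locus, per the file headers, on TAIR10 per the submitters' processing notes. Which aligner and counter were used, and with which strand setting, is not given in the sources used here. Totals were 34958324 to 41447647 counts per library. RefSeq TAIR10.1 matched 32536 of 34262 loci, 99.95% with the same coordinates, all 10 genes among them, and none of the 10 overlapped another locus.

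Tests used edgeR 4.0.16 in R 4.3.3 on these counts (quasi-likelihood F test, TMM scaling, filterByExpr by group, 21439 genes, a means model over all 12 libraries, Benjamini-Hochberg adjustment over all tested genes, called at 0.05). The biological coefficient of variation was 0.0926. The fit was tested on simulated data that gave all genes the same spread and changed few of them. That test does not cover a response as broad as the one here. The SE of a log2 fold change is its size divided by the square root of F. The 10 genes and all lists were chosen with earlier results of these data known. Besides the 10, the text names per list and induction contrast up to 4 called genes in order of adjusted p with a mean of at least 1 CPM in either group, 5 genes of like pattern, and genes said to be named after their values were seen (UMAMIT32 also among them). Sums per kb use exon lengths from the annotation. Libraries of a group differed by more than counting noise (chi-square per degree of freedom 8.23 to 15.4), so none was a duplicate. The labels call the replicates biological but do not say whether they were grown separately, and p-values measure the spread between these samples. Deviations of libraries with the same replicate number correlated at 0.141 to 0.308 between induced and mock at 24 h, over the limit of 0.1. The numbers may thus mark pairs there, but the fit as reported has no term for pairs. Its SE and p-values ignore such pairing, and the replicate block among the alternatives allows for it. At 8 h libraries with the same number correlated at 0.0447 to 0.249 and between mock times at -0.0345 to 0.437. Unlike numbers also correlated in places, at 0.276 for induced 24 h library 3 with mock 8 h library 2. The 18 alternatives were RLE factors, total library size, no low-count filter, a replicate block, fits of the 6 libraries of a contrast, DESeq2 1.42.0, and leaving out each of the 12 libraries. Sequences were read from the RefSeq genome with Python 3.11.15, and figures drawn with matplotlib 3.10.9.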

Additional observations from a re-analysis of the deposited data

Results flagged for a closer look

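For 8 of the 10 genes the response to induction differed between times, by a test of the difference itself (24 h minus 8 h in edgeR, adjusted p under 0.05). In this difference 22.6% of all tested genes were called lower and 18.2% higher. The 10 genes were chosen with these responses known, so the values below describe them. The difference in log2 fold change was -3.77 for UMAMIT14, -3.68 for UMAMIT25, -2.7 for UMAMIT47 and -2.46 for UMAMIT18. It was -1.79 for WAT1, -1.27 for UMAMIT45, -0.8 for UMAMIT41 and -0.77 for UMAMIT44. The sums of pericycle, phloem, xylem and endodermis markers in induced roots were also lower at 24 h than at 8 h, and their part in these differences was not tested. The groups of 3 libraries are too small to look for single outlying libraries.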

How the results depend on the processing

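All 380 log2 fold changes of the 10 genes at 8 h and 24 h, over the fit as reported and 18 alternatives, were negative. At 8 h between 8 and 10 of the 10 were called lower and at 24 h all 10 under each setting, and 8 differed between times under each setting run for that difference. The 8 h counts of the other UMAMIT genes ran from 13 to 20 (18 as reported) and the 24 h counts from 21 to 23 (21 as reported).

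The replicate block changed no count for the 10 genes, with 10 called at 8 h, 10 at 24 h and 8 in the difference, and it moved no other count for induction by over 1.5 times. For mock at 24 h against mock at 8 h over all genes (142 called), it gave 271, the fit of 6 libraries 0, and DESeq2 385; leaving out 1 library gave 1 to 204. The cause was not tested. DESeq2 called 1 other UMAMIT gene in mock roots, where edgeR called 0 (2 with an unadjusted p under 0.05). Counts limit UMAMIT14, UMAMIT25, UMAMIT46 and UMAMIT47 most, with 8 to 30 counts over the 3 induced libraries at 24 h, and bounds cover counting error only.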

Other observations

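UMAMIT36 (AT1G70260), known as RTP1 for its part in susceptibility to an oomycete, was lower in induced than in mock roots at both times, with 0.0660 ± 0.0741 CPM in induced and 2.39 ± 0.766 CPM in mock roots at 8 h (log2 fold change -5.08, SE 0.560, edgeR adjusted p = 1.8e-05). At 24 h it had 0.0557 ± 0.0601 CPM in induced and 5.56 ± 1.15 CPM in mock roots (log2 fold change -6.56, SE 0.535, edgeR adjusted p = 2.71e-07). Its mock levels did not overlap between times, with 4.66, 6.86 and 5.15 CPM at 24 h and 1.66, 2.31 and 3.19 CPM at 8 h. The change in mock roots (log2 fold change 1.22) was not called by edgeR (adjusted p = 0.143) and was called by DESeq2 (adjusted p = 0.0069). It was named after its values were seen.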
